A study of Mus musculus with 2 samples.

Results

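The cells described here are B cells from B16 melanomas that held messenger RNA of Fcer2a, the gene of the low-affinity IgE receptor CD23, a surface protein of follicular B cells. They were chosen by their own counts of unique molecular identifiers (UMIs, each standing for 1 captured RNA molecule). Of barcodes with at least 500 UMIs, at least 200 genes and under 10% mitochondrial UMIs, those with at least 2 Cd79a UMIs, at least 1 Ms4a1 UMI, at least 1 Fcer2a UMI and none of Cd3e or Csf1r were taken. This rule found 2151 cells among 13040 kept barcodes and 14940 deposited ones, and they are called Fcer2a B cells below. Because the 5 genes chose the cells, their levels are a description and no finding.

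Follicular B cells are the main resting, recirculating B cells of lymph nodes and spleen. They find the follicle through the chemokine receptor CXCR5, are drawn to lymph nodes through CCR7, live on the survival factor BAFF, and present antigen they take up through the B cell receptor on MHC class II. CD23 and the complement receptor CR2 (CD21) mark them, while marginal zone B cells carry CR2 with CD9 and little CD23, and B-1 cells, germinal center B cells and plasma cells lose or lack CD23.

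Live cells positive for mouse CD45, the pan-leukocyte surface protein, were sorted from subcutaneous B16 tumors, a transplanted mouse melanoma, and profiled by droplet sequencing of RNA 3′ ends. All mice were C57bl/6j, 6 to 8 weeks old, lacked mouse LAIR1 (LAIR1-/-) and carried a human LAIR1 transgene switched on by Vav-cre, whose promoter is active in blood-forming cells and their progeny, B cells included. LAIR1 is an inhibitory receptor for collagens and complement C1q. One library came from mice given h219-LLG, a humanized antibody that blocks human LAIR1 and has a mutated Fc part, and 1 came from mice given an isotype control antibody. Both antibodies were given at 10 mg/kg from day 5 after tumor injection, every 4 days for 3 doses, and the experiment ended on day 16. With 1 library per group, library and treatment cannot be told apart and no test of the treatment was possible. How many mice each library pooled was stated in none of the sources used here.

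The h219-LLG library held 8807 barcodes and 48834592 UMIs, and the control library held 6133 barcodes and 40339654 UMIs. The 2 libraries shared 13 barcodes, and 1 Fcer2a B cell of the control carried a barcode that also occurred in the other library. Fcer2a B cells numbered 1207 with h219-LLG, which is 16.2% (exact 95% interval 15.4 to 17.1) of 7433 kept barcodes, and 944 in the control, which is 16.8% (15.9 to 17.8) of 5607. They made up 64.1% (61.9 to 66.2) of 1884 B cells found by the rule without Fcer2a in the h219-LLG library, and 66.9% (64.4 to 69.4) of 1411 in the control. Their median depth was 3667 UMIs and 1334 genes with h219-LLG, against 4474.5 UMIs and 1513.5 genes in the control. Mitochondrial UMIs made up a median of 5.33% and 4.73%. Control cells held more UMIs, so shares of cells with a UMI are also given after each cell was drawn down at random to 1000 UMIs. Such shares do not separate fewer cells with the RNA from less RNA per cell, and the intervals given throughout hold counting error and nothing else.

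The thresholds cut through a continuous range. Exactly 1 Fcer2a UMI was found in 503 of the h219-LLG cells and 357 of the control cells, 2 UMIs in 302 and 231, and at least 3 in 402 and 356, with a highest count of 16 and 13. Just outside lay 677 B cells with h219-LLG and 467 in the control that passed every other step but held no Fcer2a UMI, and these are called other B cells. Among Fcer2a B cells, 56 and 20 held just 2 Cd79a UMIs, while 24 and 16 barcodes with 1 Cd79a UMI fell outside. Over both libraries, 390 barcodes were left out for having no Ms4a1 UMI. Barcodes left out for a Cd3e UMI (89 and 42) or a Csf1r UMI (27 and 3) had median depths of 9240 to 14221 UMIs, above the medians of the cells kept.

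Marker genes that the rule did not use were those of mature B cells. In this and all later pairs of values, h219-LLG comes first and the isotype control second. Cd79b, a chain of the B cell receptor's signaling unit, had a UMI in 94.6% and 92.2% of Fcer2a B cells, against 3.02% and 1.26% of naive CD4 T-like cells, which served as a class that should lack B cell genes. These T-like cells (364 and 318, median depth 6062.5 and 7123 UMIs) held UMIs of Cd3e, Cd4 and 1 further gene and none of Cd8b1, Foxp3, Cd79a or Csf1r. Ebf1 and Pax5, transcription factors of B cell identity, were found in 98.9% and 99.7% and in 79.2% and 82.9% of Fcer2a B cells. In the T-like cells the shares were 1.37% and 0.314% for Ebf1 and 0.549% and 0% for Pax5.

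The follicular markers were also present. Cr2 had a UMI in 33.6% and 34.0% of Fcer2a B cells, Cxcr5 in 22.8% and 35.4%, Ccr7 in 73.5% and 81.5% and Tnfrsf13c, the BAFF receptor, in 39.4% and 42.7%. Markers of other B cell stages ranged from rare to common. Cd9 was found in 3.56% and 2.97%, S1pr3, a receptor of marginal zone B cells, in 0.497% and 0.530%, and Cd93, of newly formed B cells, in 4.81% and 5.08%. Jchain, which joins secreted IgM and IgA, was found in 0.249% and 1.06%, and Mki67, a protein of dividing cells, in 0.497% and 0.318%. Rag1, Rag2, Igll1 and Vpreb1, genes of B cell precursors, had no UMI in either library. Common ones were Mzb1 and Notch2, listed here with the marginal zone genes, in 56.5% and 50.6% and in 27.1% and 24.0%, and Vpreb3 and Cd24a, listed with the immature genes, in 48.7% and 47.9% and in 47.2% and 51.5%. Sec11c, a signal peptidase subunit of the plasma cell list, was found in 603 and 456 cells, and Bcl6, of the germinal center list, in 10.3% and 18.3%. A UMI of any gene of the list was held by 23.9% and 31.9% of cells for the germinal center, 67.3% and 65.0% for plasma cells and 85.8% and 90.6% for the cell cycle. The constant genes of immunoglobulins have no row in the gene list the authors used, so IgD, IgM and light chain class were not analysed here.

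**Figure D1:**
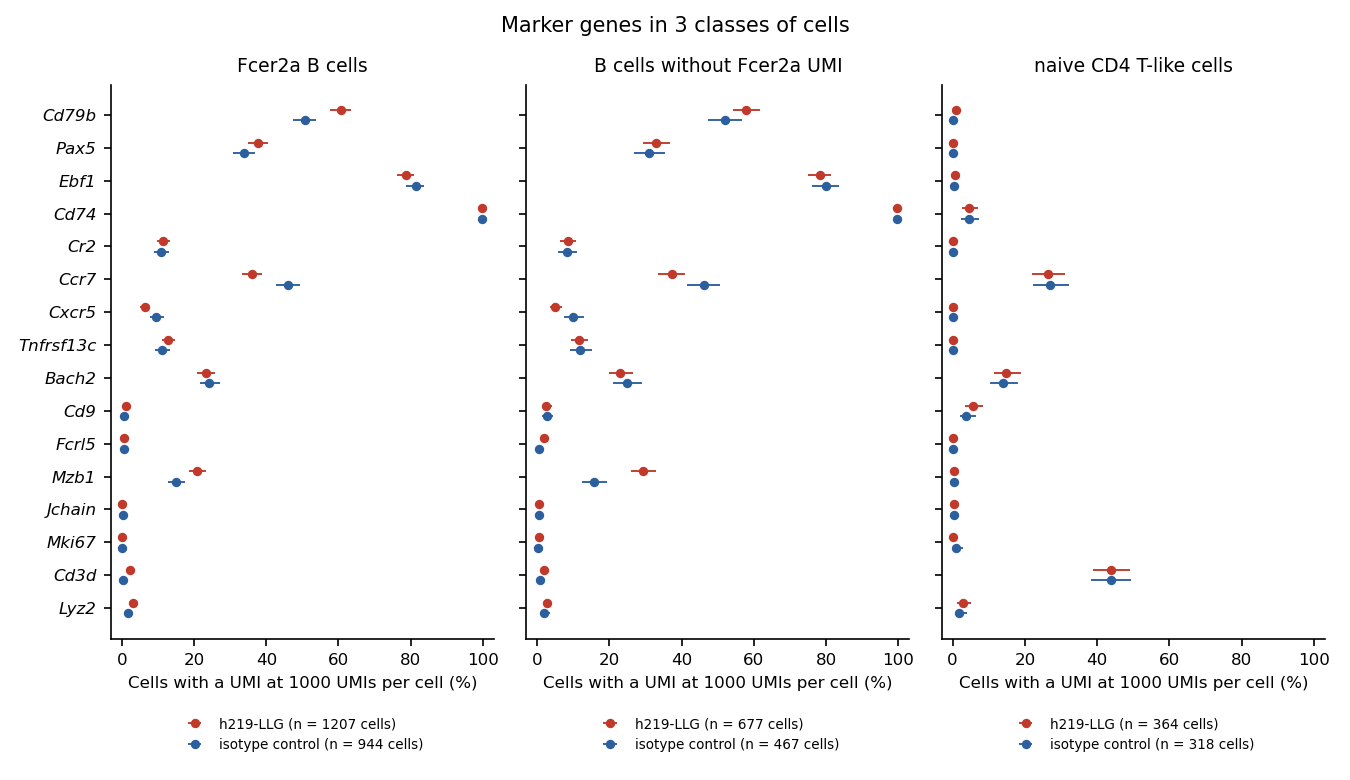
Share of cells with a UMI of 16 marker genes (x axis, percent, each cell drawn down to 1000 UMIs) in Fcer2a B cells, B cells with no Fcer2a UMI and naive CD4 T-like cells; points are the 2 libraries and lines are exact 95% intervals. Ebf1 was found in 78.7% and 81.4% of Fcer2a B cells at this depth and Cr2 in 11.5% and 10.9%, while Cr2 was found in none of the thinned T-like cells.

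UMIs of other lineages were found in both libraries, those of T and NK cells in more of the h219-LLG cells and those of erythroid and melanoma cells in more of the control cells. At least 1 UMI of 9 genes of T and NK cells was found in 15.6% of Fcer2a B cells with h219-LLG and 8.37% in the control, and 26 and 10 cells held 5 or more. Ncr1, an NK cell receptor, was at 0 with h219-LLG and no gene of the list was at 0 in the control. The summed level of the list was 123 and 55.5 CPM (UMIs per 1000000 UMIs of the summed cells). Among its genes, Cd3d had 32.3 and 8.25 CPM and a ratio of 3.91 (2.72 to 5.76), and Il7r had 36.3 and 14.9 CPM. The 13 genes of myeloid cells summed to 741 and 551 CPM, with Csf3r at 0 in the control. A UMI was held by 900 and 702 cells (74.6% and 74.4%), and 5 or more by 116 and 136 cells (9.61% and 14.4%). The list includes Apoe and Cst3, at 2.21 and 4.33 times their Fcer2a B cell level outside the B cells, against 77.8 for Lyz2. Apoe alone gave 1172 and 1403 of the 3650 and 2473 UMIs, so these shares do not count cells with RNA of another lineage. The 6 erythroid and platelet genes had a UMI in 8.45% and 20.8% of cells and summed to 24.8 and 1255 CPM, with 91.9% of the control UMIs in 1 cell. The 6 melanoma genes had a UMI in 4.14% and 6.67% (18.1 and 33.2 CPM), and 21.3% and 43.0% of their UMIs lay in 1 cell of each library. The 8 dendritic cell genes had a UMI in 4.31% and 4.77%. One melanoma gene, Tyr, was at 0 with h219-LLG and 5 dendritic genes were at 0 in the control. Lyz2, the lysozyme of macrophages and neutrophils, had 181 and 75 UMIs and was found in 10.0% and 5.83% of cells. S100a8 and S100a9, proteins of neutrophils, had ratios of 23.80 and 23.52, but 88.5% and 85.6% of their h219-LLG UMIs lay in 1 cell, and the ratios were 3.12 and 4.67 with the top cell of each library left out. A score against simulated doublets marked 79 h219-LLG cells (6.55%) and 29 control cells (3.07%). Hence ratios below are also given for the 853 and 725 Fcer2a B cells with no UMI of 10 further T, NK, myeloid and melanoma genes, where they bear on a result.

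Lair1, the deleted mouse gene (chr7:4003402-4063204, minus strand, mm10), still gave UMIs in both libraries. The sources used here do not give the deleted part, and the human transgene has no row in the gene list, so these UMIs check neither. Fcer2a B cells held 170 and 29 UMIs, or 34.5 and 6.46 CPM, and the ratio was 5.34 (3.59 to 8.21). It was 8.84 in cells without UMIs of other lineages and 28.06 with at least 2 Fcer2a and 3 Cd79a UMIs. Nearly all of its UMIs came from few cells. With h219-LLG 19 cells held 22, 21, 18, 16, 13, 13, 10, 9, 8, 8, 7, 6, 5, 5, 4, 2, 1, 1 and 1 UMIs, and in the control 5 cells held 14, 12, 1, 1 and 1. Cells with at least 5 Lair1 UMIs were 14 of 1207 (1.16%, 0.636 to 1.94) and 2 of 944 (0.212%, 0.0257 to 0.763), so the 2 intervals overlapped. One of the 14 also held Siglech UMIs, of plasmacytoid dendritic cells. Over all kept barcodes the order was the other way, with 1.10% and 1.75% of barcodes at 5 UMIs or more and 28.4 and 37.8 CPM.

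The levels of genes in the 2 libraries were then compared over all Fcer2a B cells. UMIs were summed over the 1207 and 944 cells (4926856 and 4487495 UMIs), and a ratio is the CPM with h219-LLG over the CPM in the control, with its exact binomial 95% interval in parentheses. Of 6623 genes with at least 100 UMIs, 273 (4.12%) were at least 1.5-fold higher with h219-LLG and 282 (4.26%) were at least 1.5-fold lower, and with TMM scaling, which resets the library totals, the counts were 212 and 333. These shares, 8.38% either way, are the background for each gene list, and the median log2 ratio of all 6623 genes was 0.00. Genes of heat shock were lower as a list, genes of MHC class I presentation were mostly somewhat higher, and the immediate early and activation genes split, with Fos, Jun, Dusp1, Klf6 and Cd69 higher and Egr1, Nr4a1, Cd83, Rel and Crem lower. Homing genes split too, with Klf2, Gpr183 and Ccr6 higher and Cxcr4, Cxcr5, S1pr4 and Ccr7 lower. Identity genes such as Pax5 and Tnfrsf13c had ratios near 1.

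**Figure D2:**
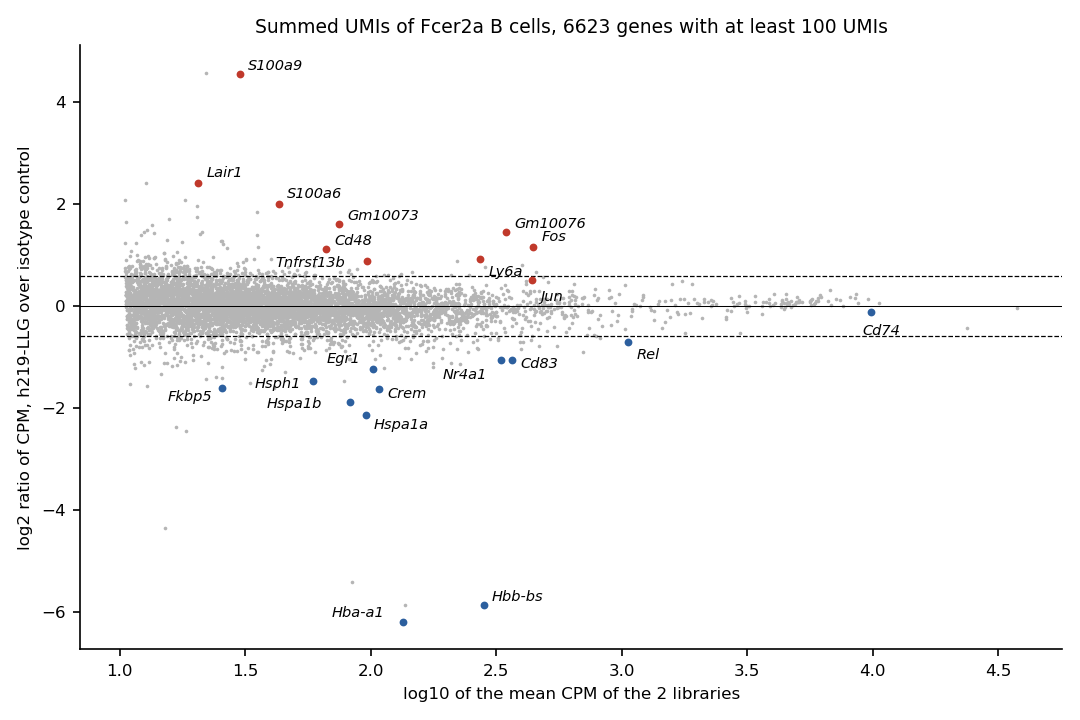
Each point is 1 of 6623 genes in Fcer2a B cells, with the log10 of its mean CPM on the x axis and the log2 ratio of h219-LLG over isotype control on the y axis; dashed lines mark 1.5-fold. Hemoglobin genes lie lowest, followed by Hspa1a at a ratio of 0.23, and Fos lies at 2.23.

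Genes of the B cell receptor and its coreceptor were somewhat higher with h219-LLG, none past 1.5-fold. All 3 coreceptor genes lay above 1, with a median log2 ratio of 0.17. Cd79b, the 1 measured gene of the receptor itself, had 990.5 and 795 CPM and a ratio of 1.25 (1.19 to 1.30). The coreceptor chains Cr2, which binds complement-coated antigen, and Cd81, a tetraspanin, had ratios of 1.25 (1.12 to 1.40) and 1.12 (1.00 to 1.26). Of 15 genes of signaling below the receptor, 9 were above a ratio of 1 and 6 below it, none was 1.5-fold higher, and 1 was 1.5-fold lower. The median log2 ratio was 0.04. The gene past the fold was Pik3ap1, the adaptor BCAP that recruits PI3 kinase, with 25.0 and 54.6 CPM, found in 9.69% and 20.9% of cells, and a ratio of 0.46 (0.37 to 0.57). The ratio was 0.51 (0.37 to 0.72) in other B cells and 0.51 (0.00858 to 9.73) in naive CD4 T-like cells. The kinases Syk and Lyn had ratios of 1.03 (0.97 to 1.09) and 0.81 (0.75 to 0.87), and the scaffold Bank1 had 1.17 (1.11 to 1.23).

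Receptors and phosphatases that restrain B cells also lay near 1. Of 10 measured genes, 5 were higher and 5 lower, 2 of them past 1.5-fold higher, with a median log2 ratio of 0.03. Both were genes of inhibitory receptors, Lair1 and Pirb, the latter with few UMIs (96 and 57 UMIs) and a ratio of 1.53 (1.09 to 2.17). Siglecg, a sialic acid receptor that dampens the B cell receptor, had 227 and 181 CPM and a ratio of 1.26 (1.15 to 1.38). Cd22, of the same family, had a ratio of 1.05 (0.96 to 1.14), and Cd72 had 0.84 (0.76 to 0.93). Ptpn6, the phosphatase SHP-1 that these receptors recruit, had 211 and 247 CPM and a ratio of 0.85 (0.78 to 0.93).

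Of 17 B cell transcription factors, 7 were higher and 10 lower, and 2 were past 1.5-fold lower, with a median log2 ratio of -0.05. Pax5 had a ratio of 0.99 (0.93 to 1.05) and Ebf1 of 0.90 (0.87 to 0.93). Past the fold were Id3, an inhibitor of E proteins, with 47.5 and 85.6 CPM and a ratio of 0.56 (0.47 to 0.65), and Foxo1, which drives Il7r and is inactivated by PI3 kinase signaling, with 233 and 363 CPM and 0.64 (0.59 to 0.69). Id3 had a ratio of 0.47 (0.33 to 0.66) in naive CD4 T-like cells as well, whereas Foxo1 had 0.97 (0.86 to 1.10) there and 0.57 (0.51 to 0.63) in other B cells. Tcf3, the E protein that Id3 binds, had the highest ratio of the list at 1.41 (1.21 to 1.64), and Ets1 had 0.74 (0.71 to 0.77).

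Genes of homing and recirculation gave a mixed picture. Of 11, 4 were higher and 7 lower, 1 of them past 1.5-fold lower, and the median log2 ratio was -0.27. Gpr183, the receptor EBI2 that guides B cells to the outer follicle, had 477 and 351 CPM and 1.36 (1.27 to 1.45). Klf2, a transcription factor that keeps lymphocytes in circulation, had a ratio of 1.35 (1.31 to 1.39), and Ccr6, a mucosal homing receptor, had 1.30 (1.07 to 1.58). All of these were higher with h219-LLG.

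The chemokine receptors of lymphoid tissue were lower. Cxcr4, which binds CXCL12, had 299 and 488 CPM, was found in 27.0% and 37.0% of thinned cells and had a ratio of 0.61 (0.57 to 0.66). Cxcr5 had 68.8 and 102 CPM and a ratio of 0.68 (0.59 to 0.78), and Ccr7 had 495 and 705 CPM and 0.70 (0.66 to 0.74). S1pr4 had 0.68 (0.55 to 0.85) and S1pr1, the receptor for exit from lymphoid tissue, 0.83 (0.76 to 0.90). In other B cells the ratios of Cxcr4, Cxcr5 and Ccr7 were 0.60, 0.58 and 0.69, and in the T-like cells Cxcr4 and Ccr7 had 0.91 (0.72 to 1.15) and 0.82 (0.75 to 0.90). Among Fcer2a B cells without UMIs of other lineages they were 0.63, 0.67 and 0.72.

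Among 9 measured genes of BAFF signaling and survival, 5 were higher and 4 lower and 1 was past 1.5-fold higher, with a median log2 ratio of 0.02. That gene was Tnfrsf13b, which encodes the BAFF and APRIL receptor TACI (chr11:61126755-61149372, plus strand). It had 621 and 304 UMIs, 126 and 67.7 CPM, and was found in 35.6% and 23.4% of cells, or 11.6% and 7.2% after thinning. Its ratio was 1.86 (1.62 to 2.14) in Fcer2a B cells, 2.17 (1.75 to 2.72) in other B cells and 1.74 (1.13 to 2.71) in naive CD4 T-like cells. The other BAFF receptor, Tnfrsf13c, stood at 141 and 139 CPM, a ratio of 1.02 (0.91 to 1.13). Bcl2, which blocks cell death, had 1.32 (1.17 to 1.5), and Traf3, which holds the non-canonical NF-kB pathway in check, had 0.78 (0.63 to 0.96).

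MHC class II genes, which B cells use to show antigen to CD4 T cells, were close to equal. Of 10, 3 were higher and 7 lower, none past 1.5-fold, and the median log2 ratio was -0.07. Cd74, the invariant chain, had 9450.5 and 10247 CPM and a ratio of 0.92 (0.91 to 0.93), and H2-Aa had 0.96 (0.94 to 0.98). The lowest was H2-DMb1, part of the peptide exchange factor, at 106 and 157 CPM and 0.67 (0.60 to 0.75), while its partner H2-DMa had 1.01 (0.96 to 1.07). Ciita, the class II transactivator, had 1.01 (0.89 to 1.14). The 8 measured genes around the IL-4 receptor, a signal known to raise CD23, divided into 4 and 4 with none past the fold and a median of -0.09. Il4ra itself had 82.0 and 96.0 CPM and a ratio of 0.85 (0.74 to 0.98), Stat6, its transcription factor, 0.76 (0.63 to 0.90), and Batf 1.16 (0.82 to 1.66).

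MHC class I genes leaned upward. Of 14, 11 were higher and 3 lower, 2 of them past 1.5-fold higher, and the median log2 ratio was 0.18, against 0.12 in other B cells and 0.14 in naive CD4 T-like cells. The highest were the immunoproteasome subunits Psmb8 and Psmb9, which shape peptides for class I. Psmb8 had 298 and 195 CPM and a ratio of 1.53 (1.41 to 1.67), and was found in 25.6% and 18.8% of thinned cells. Its ratio was 1.49 with TMM scaling and 1.46 after thinning, under 1.5-fold. Psmb9 had 136 and 89.4 CPM and a ratio of 1.52 (1.34 to 1.72), which was 1.48 with TMM scaling and 1.15 after thinning. Tap2, a peptide transporter chain, had 1.27 (1.05 to 1.53) and H2-K1 1.13 (1.09 to 1.18), and the light chain B2m had 0.90 (0.87 to 0.93). Interferon-stimulated genes did not lean the same way, with 9 higher and 8 lower of 17 and a median of 0.04. Slfn5 was past the fold upward at 190 and 109 UMIs, with a ratio of 1.59 (1.25 to 2.03), and Irf7 downward at 116 and 185 UMIs, with 0.57 (0.45 to 0.72).

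**Figure D3:**
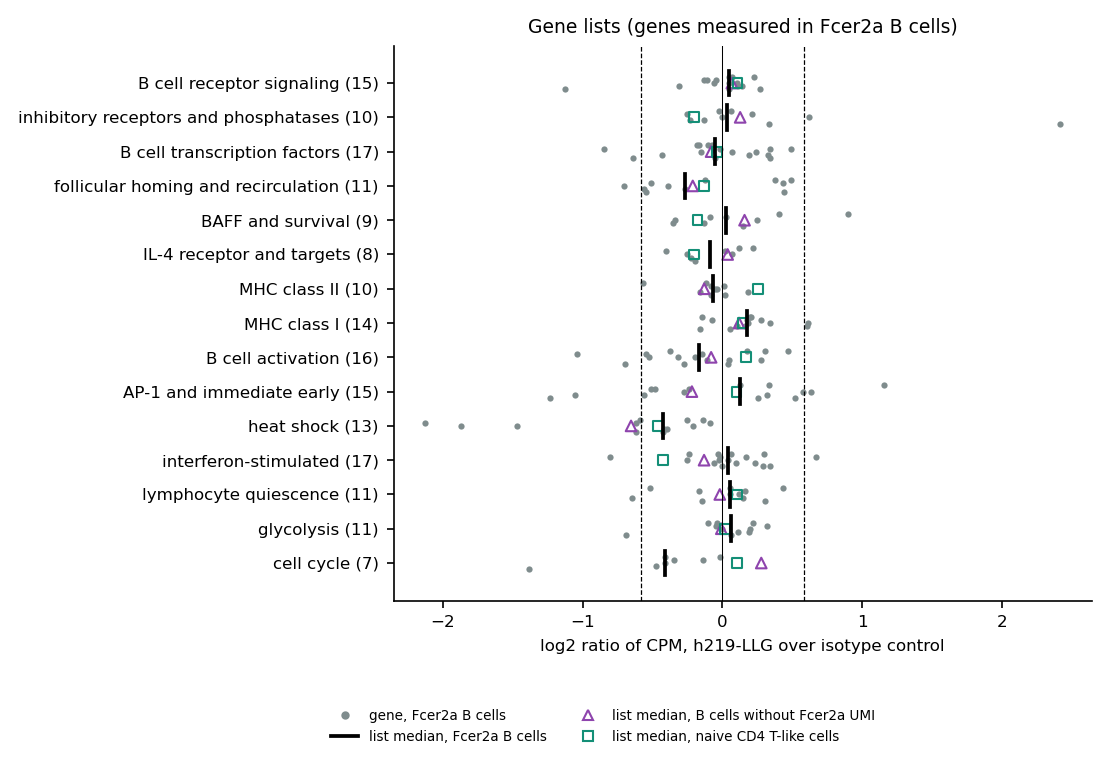
Log2 ratio of h219-LLG over isotype control (x axis) for the measured genes of 15 lists in Fcer2a B cells (dots), with each list's median (bars) and the median of the same list in B cells with no Fcer2a UMI (triangles) and naive CD4 T-like cells (squares). The heat shock list lies lowest, at a median of -0.43, and the cell cycle list at -0.41 rests on 7 genes.

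Genes that B cells switch on when activated did not move one way. Of 16 measured, 6 were higher and 10 lower, 2 of them past 1.5-fold lower, with a median log2 ratio of -0.17. Cd83, a surface protein that steadies MHC class II and rises early after B cell stimulation (chr13:43784775-43803132, plus strand), had 1180 and 2215 UMIs and 239.5 and 494 CPM. It was found in 51.9% and 77.3% of cells, or 21.3% and 36.7% after thinning, against 3.02% and 3.14% of naive CD4 T-like cells. The ratio was 0.49 (0.45 to 0.52) in Fcer2a B cells and 0.49 (0.44 to 0.54) in other B cells. Rel, the NF-kB subunit c-Rel of lymphocytes (chr11:23736847-23770970, minus strand), had 807 and 1309 CPM and a ratio of 0.62 (0.59 to 0.64), and 0.78 (0.67 to 0.92) in the T-like cells. Both were lower with and without thinning.

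Other activation genes lay on both sides of 1. Cd69, an early activation protein that retains lymphocytes in tissue, had 588 and 426 CPM and a ratio of 1.38 (1.30 to 1.46), and Myc, a growth regulator, had 1.23 (1.09 to 1.39). Irf4, a transcription factor of activated B cells, and Cd86, a ligand for T cell costimulation, had 0.83 (0.74 to 0.92) and 0.87 (0.78 to 0.98). Ccl4, a chemokine made by activated B cells, had 0.70 (0.53 to 0.91), but 38.1% of its h219-LLG UMIs lay in 1 cell. Its ratio was 0.27 at under 5% mitochondrial UMIs and 1.10 with at least 2 Fcer2a and 3 Cd79a UMIs, so that its direction depended on the cells taken.

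The AP-1 and other immediate early genes diverged. Of 15, 8 were higher and 7 lower, 2 past 1.5-fold in each direction, and the median log2 ratio was 0.13, which turned to -0.26 among cells with under 5% mitochondrial UMIs. Fos, a subunit of AP-1 (chr12:85473890-85477273, plus strand), had 3009 and 1230 UMIs, or 611 and 274 CPM. It was found in 70.8% and 46.6% of cells and in 38.7% and 18.1% after thinning, with at least 2 thinned UMIs in 14.1% and 5.40%. Its ratio was 2.23 (2.08 to 2.38) in Fcer2a B cells, 1.48 (1.35 to 1.63) in other B cells and 1.77 (1.58 to 1.99) in naive CD4 T-like cells, and 2.12 in Fcer2a B cells without UMIs of other lineages. Fos was thus higher across many cells and in each class compared.

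Jun, the partner of Fos, had 519 and 363 CPM and a ratio of 1.43 (1.34 to 1.52), and 1.04 (0.95 to 1.13) in other B cells. Dusp1, a MAP kinase phosphatase, had 1.55 (1.38 to 1.75), and Klf6 had 1.49 (1.40 to 1.58). Lower were Egr1 and Nr4a1, which are induced through the antigen receptor. Nr4a1 (chr15:101254269-101274795, plus strand) had 1054 and 1997 UMIs, was found in 42.7% and 66.6% of cells and in 17.5% and 31.7% after thinning, and had a ratio of 0.48 (0.45 to 0.52). Egr1 had 299 and 641 UMIs from few cells, 8.37% and 10.9%, and a ratio of 0.42 (0.37 to 0.49). In other B cells the ratios were 0.50 for Nr4a1 and 0.49 for Egr1, and in the T-like cells 0.86 (0.67 to 1.11) and 0.88 (0.66 to 1.16). Dusp2, a nuclear MAP kinase phosphatase, was lower in Fcer2a B cells at 0.68 (0.62 to 0.74) and higher in the T-like cells at 1.69 (1.37 to 2.08), a difference that was not tested. Jund had 0.70 (0.68 to 0.72).

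**Figure D4:**
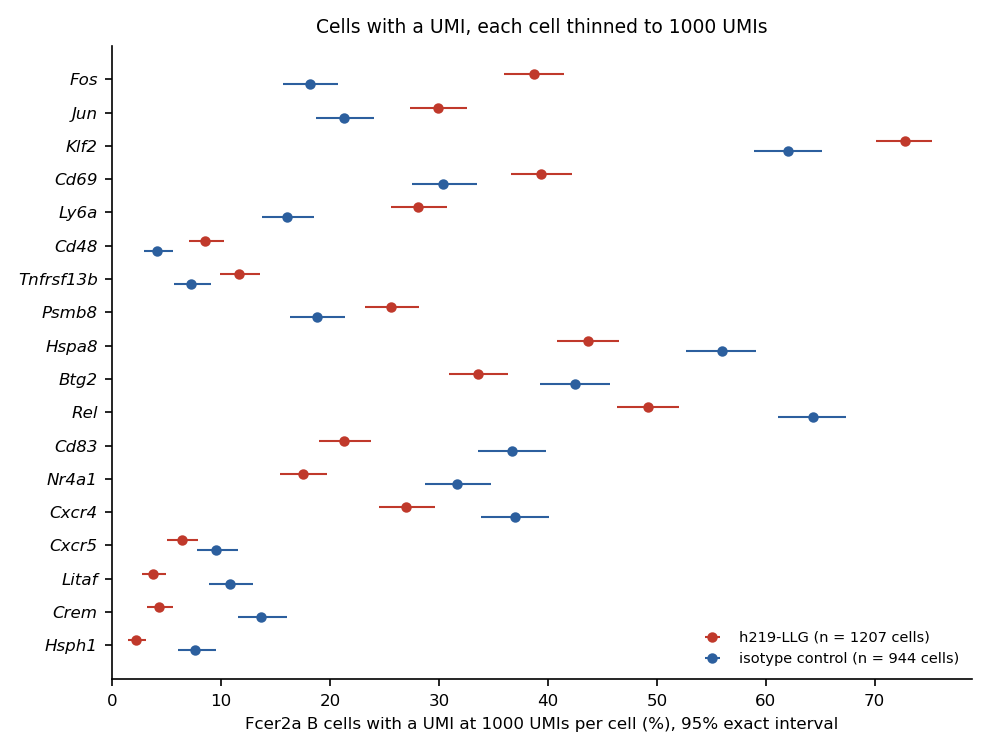
Share of Fcer2a B cells with a UMI of 18 genes (x axis, percent, each cell drawn down to 1000 UMIs) in the h219-LLG library (1207 cells) and the isotype control library (944 cells); lines are exact 95% intervals. Fos was found in 38.7% and 18.1% and Cd83 in 21.3% and 36.7%.

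Heat shock genes were lower with h219-LLG. Many of these chaperones refold proteins damaged by heat or other stress, and the transcription factor HSF1 induces several of them. All 13 measured genes had ratios under 1, 6 of them past 1.5-fold, and the median log2 ratio was -0.43, against -0.65 in other B cells and -0.46 in naive CD4 T-like cells. Hspa8, the constitutive HSP70, had 644 and 991 CPM, was found in 43.7% and 55.9% of thinned cells and had a ratio of 0.65 (0.62 to 0.68). Hsph1, an HSP110 nucleotide exchange factor, had 154 and 389 UMIs, a ratio of 0.36 (0.30 to 0.44), and was found in 8.86% and 24.8% of cells. Dnaja1, a cochaperone, had 0.65 (0.60 to 0.70), and Hsp90ab1 and Hsp90aa1, the cytosolic HSP90 proteins, had 0.74 (0.72 to 0.77) and 0.75 (0.71 to 0.79). The chaperones of the endoplasmic reticulum Hspa5 and Hsp90b1 had 0.76 (0.72 to 0.80) and 0.67 (0.62 to 0.72). Closest to 1 were Hspe1 at 0.94 (0.88 to 1.01) and Chordc1 at 0.91 (0.73 to 1.12).

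The stress-inducible HSP70 genes had the lowest ratios, but in few cells. Hspa1a (chr17:34969190-34972156, minus strand, mm10) gave 175 and 696 UMIs, at a ratio of 0.23 (0.19 to 0.27), and Hspa1b (chr17:34956436-34959238, minus strand) had 175 and 584 UMIs and 0.27 (0.23 to 0.32). The 2 genes are near-identical copies, so reads can be split between them, and their sum was 350 and 1280 UMIs with a ratio of 0.249 (0.221 to 0.281). A UMI of either was found in 76 and 71 cells, so the number of cells with any was about the same. At least 10 UMIs were found in 6 cells (0.497%) with h219-LLG and 12 cells (1.27%) in the control, which held 206 and 1190 of the UMIs, with up to 59 and 228 UMIs in 1 cell. In other B cells 0 and 9 cells reached 10 UMIs and the ratio was 0.0566 (0.0454 to 0.0699). In naive CD4 T-like cells 5 cells did so in each library and the ratio was 0.898 (0.791 to 1.02). There 1 cell held 368 of the 469 UMIs with h219-LLG and 1 cell held 315 of the 529 in the control, so that ratio rests largely on these cells.

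The promoters of this pair are shown since their RNAs were found together in 13 and 16 cells. The 250 bases before each gene start are from RefSeq (build GRCm38.p6), 5′ to 3′ on the minus strand, at chr17:34972157-34972406 for Hspa1a and chr17:34959239-34959488 for Hspa1b. Capitals mark the heat shock element searched for, GAANNTTC or TTCNNGAA, on either strand.
Hspa1a: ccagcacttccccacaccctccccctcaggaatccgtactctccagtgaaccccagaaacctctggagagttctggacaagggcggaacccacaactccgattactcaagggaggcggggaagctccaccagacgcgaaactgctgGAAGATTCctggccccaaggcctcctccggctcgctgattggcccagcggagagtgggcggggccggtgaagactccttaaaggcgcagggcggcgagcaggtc
Hspa1b: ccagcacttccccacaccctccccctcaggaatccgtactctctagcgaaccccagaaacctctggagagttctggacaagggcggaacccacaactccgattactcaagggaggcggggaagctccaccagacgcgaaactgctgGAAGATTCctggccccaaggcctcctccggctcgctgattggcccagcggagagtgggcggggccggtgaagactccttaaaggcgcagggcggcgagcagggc
The stretches share 247 of 250 bases (98.8%), and each holds 1 match that begins 104 bases before the gene start. A match was found in the same window of 6 of the 10 measured heat shock genes with a promoter entry, and in 3932 of all 27025 symbols (14.5%). A match of letters is a description and not a binding site.

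**Figure D5:**
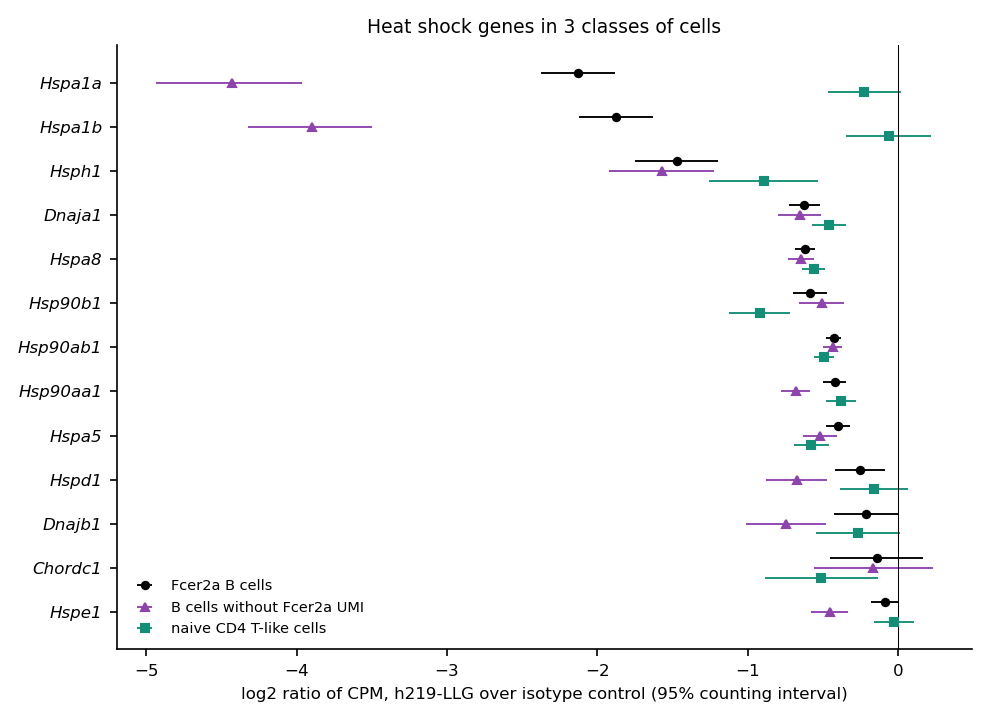
Log2 ratio of h219-LLG over isotype control (x axis, with 95% counting intervals) for 13 heat shock genes in Fcer2a B cells, B cells with no Fcer2a UMI and naive CD4 T-like cells. All 13 lie below 0 in Fcer2a B cells, and the classes differ most for Hspa1a, at ratios of 0.23, 0.0463 and 0.86. In the T-like cells 1 cell of each library held 368 of 469 and 315 of 529 UMIs of Hspa1a and Hspa1b together.

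Lists of quiescence, glycolysis and the cell cycle held few genes past the fold. Of 11 quiescence genes 7 were higher, 1 was past 1.5-fold lower and the median log2 ratio was 0.06. Btg1, which restrains proliferation, had 2423 and 3475 CPM and a ratio of 0.70 (0.68 to 0.71), Pik3ip1, an inhibitor of PI3 kinase, had 0.64 (0.57 to 0.72), and Zfp36l2, which promotes mRNA decay, had 1.35 (1.28 to 1.42). Of 11 glycolysis genes 6 were higher and 1 was past the fold, with a median of 0.06. That gene was Slc2a1, the glucose transporter GLUT1, at 87 and 128 UMIs and a ratio of 0.62 (0.47 to 0.82), and Eno1 had 1.24 (1.08 to 1.44). All 7 measured cell cycle genes were below 1, 1 past the fold, with a median of -0.41, against 0.28 in other B cells, where 22.6% of the list's h219-LLG UMIs lay in 1 cell. Stmn1, a microtubule regulator of dividing cells, gave 66 and 157 UMIs, at a ratio of 0.38 (0.28 to 0.51), or 0.46 without the top cell of each library, since 20.4% of its control UMIs lay in 1 cell. Pcna, the replication clamp, had 0.72 (0.61 to 0.84). Bcl6, the germinal center repressor, was found in 10.3% and 18.3% of cells, with a ratio of 0.58 (0.47 to 0.73), or 0.95 after thinning.

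Of markers for other B cell types few were measured. Mzb1, a chaperone of IgM assembly, had a ratio of 1.35 (1.24 to 1.48) and Notch2, the receptor that drives marginal zone fate, 1.31 (1.13 to 1.53). The 6 measured marginal zone genes divided into 3 and 3 with none past the fold. The 4 measured genes of the plasma cell list, of the secretory pathway, lay above 1 with none past the fold, led by Txndc5 at 1.30 (1.09 to 1.56). S100a6, a calcium-binding protein listed with B-1 cells, gave 340 and 77 UMIs, at a ratio of 4.02 (3.13 to 5.22), and 12.20 (9.85 to 15.29) in other B cells. It was found in 9.28% and 6.04% of Fcer2a B cells, 14.7% of its h219-LLG UMIs lay in 1 cell, and the ratio was 2.25 in cells without UMIs of other lineages.

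Across all genes with at least 200 UMIs, the 12 highest and the 12 lowest ratios were listed, leaving out genes over 5 times higher outside the B cells. Without such genes, 247 (3.77%) of 6560 genes were past 1.5-fold higher and 277 (4.22%) past 1.5-fold lower. Highest were Gm10073 and Gm10076, whose products are not known from the files. Gm10076, annotated as a lincRNA, had 2502 and 835 UMIs, was found in 82.8% and 55.2% of cells and had a ratio of 2.73 (2.52 to 2.96), and 2.77 (2.48 to 3.11) and 2.59 (2.33 to 2.88) in the other classes. Gm10073 had 112 and 36.8 CPM and ratios of 3.05, 2.87 and 2.63 in Fcer2a B cells, other B cells and T-like cells, and the processed pseudogene Gm8186 had 1.91, 2.56 and 2.46. These 3 genes were higher with h219-LLG in each class, and reads of pseudogenes can belong to near-identical genes.

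Protein-coding genes at the top, beside Fos and Tnfrsf13b, included 2 surface proteins. Cd48, a ligand of CD2 and CD244 on lymphocytes (chr1:171682009-171705258, plus strand), had 90.5 and 41.7 CPM, was found in 8.53% and 4.13% of thinned cells and had a ratio of 2.17 (1.83 to 2.59). The ratio was 2.17 (1.71 to 2.79) in other B cells and 1.61 (1.27 to 2.05) in naive CD4 T-like cells. Ly6a, which encodes Sca-1 and is induced by interferons, had 357 and 188 CPM, was found in 28.1% and 16% of thinned cells and had a ratio of 1.90 (1.75 to 2.07), and 2.15 (1.92 to 2.41) and 1.23 (1.05 to 1.45) in the other classes. Dtx3l, a ubiquitin ligase, had a ratio of 1.91 (1.49 to 2.45), but 0.73 (0.59 to 0.91) in the T-like cells, a difference that was not tested. Sdhaf4 and Ptcd2, mitochondrial proteins, had 2.68 (1.94 to 3.76) and 1.96 (1.47 to 2.64), and Tpm1, a tropomyosin, and Tmem256 had 1.89 (1.49 to 2.41) and 1.88 (1.47 to 2.41).

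Lowest were 4 hemoglobin genes. Hba-a1, Hba-a2, Hbb-bs and Hbb-bt had ratios of 0.0138, 0.0174, 0.0172 and 0.0235. In the control, 89.6% to 94.3% of their UMIs lay in 1 cell, and without the top cell of each library the ratios were 0.19, 0.16, 0.22 and 0.37. Hemoglobin was found in few cells at other counts, Hbb-bs in 3.56% and 11.1%.

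Beside these and the heat shock genes Hspa1a, Hspa1b and Hsph1, 5 genes were among the lowest. Crem, a regulator of cAMP responses, had 259 and 730 UMIs, was found in 16.7% and 43.2% of cells and in 4.31% and 13.7% after thinning, and had ratios of 0.32 (0.28 to 0.37) in Fcer2a B cells, 0.36 (0.30 to 0.43) in other B cells and 0.29 (0.24 to 0.36) in T-like cells. Fkbp5, a chaperone induced by glucocorticoids, had 62 and 172 UMIs and ratios of 0.33 (0.24 to 0.44), 0.40 (0.27 to 0.59) and 0.52 (0.38 to 0.72) in the same order. Litaf, a protein of late endosomes, had 41.6 and 115 CPM, was found in 13.8% and 37.1% of cells and had a ratio of 0.36 (0.31 to 0.43), and 0.74 (0.46 to 1.19) in the T-like cells. Grasp, a scaffold protein, gave 101 and 278 UMIs, at a ratio of 0.33 (0.26 to 0.42), while in T-like cells it was 2.36 (0.85 to 7.50). Pdxk, which makes the active form of vitamin B6, had 85 and 220 UMIs and 0.35 (0.27 to 0.45). These genes were lower in both classes of B cells, and in T-like cells Crem and Fkbp5 were lower as well.

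Fcer2a B cells were then compared with the other B cells of the same library at 1000 UMIs per cell. Of 3812 genes, 11 (0.289%) were at least 1.5-fold higher in both libraries, Fcer2a itself among them, and 7 (0.184%) were at least 1.5-fold lower in both. Among the higher genes Bcl2 had ratios of 1.64 (1.21 to 2.27) and 1.52 (0.98 to 2.42). Myo1g, a myosin of lymphocytes, had 1.57 (1.01 to 2.48) and 2.01 (1.13 to 3.81). Phgdh, Sae1, Prpf18, Psd4, Pcbd2, Kcmf1, Smarcc2 and 2610507B11Rik had 27 to 79 thinned UMIs in Fcer2a B cells, and at least 1 of the 2 intervals of each included 1. Among the lower genes, Arl5c had 0.65 (0.47 to 0.92) and 0.66 (0.45 to 0.99), Maml3, a Notch coactivator, 0.59 (0.36 to 0.97) and 0.54 (0.29 to 0.99), and Ybx3 0.55 (0.33 to 0.89) and 0.60 (0.34 to 1.07). Ftsj3 had 0.60 and 0.38, and Dut, of nucleotide metabolism, 0.66 and 0.43. The other 2 were the hemoglobin genes Hbb-bs and Hbb-bt, and 98.7% and 98.3% of the erythroid and platelet UMIs of the other B cells lay in 1 cell of each library. Few genes thus differed past the fold in both libraries.

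At full depth, 245 list genes had at least 100 UMIs over the 2 classes and libraries. In 28 of them the interval of Fcer2a B cells over other B cells lay above 1 in both libraries, and in 21 it lay below 1. Over all 7698 genes with as many UMIs, 114 (1.48%) lay above 1 and 96 (1.25%) below 1 in both. Of the 21, 4 were hemoglobin genes. Cr2 was among the higher ones, with ratios of 1.58 (1.37 to 1.82) with h219-LLG and 1.66 (1.39 to 2.01) in the control. Bcl2 had 1.30 and 1.41, Ccr6 1.47 and 1.44, Icosl, the ligand of ICOS on T cells, 1.49 and 1.67, and Il4i1, an amino acid oxidase induced by IL-4, 2.63 and 1.62. The class II genes were slightly higher, Ciita at 1.41 and 1.32, H2-Aa at 1.15 and 1.09, H2-Ab1 at 1.14 and 1.12 and Cd74 at 1.09 and 1.08. Pax5 had 1.19 and 1.14 and Cd22 1.22 and 1.28. After thinning Cr2 stayed higher, at 1.48 (1.10 to 2.02) and 1.51 (1.05 to 2.20). Ccr6 then had 1.24 (0.79 to 1.99) and 1.08 (0.59 to 2.04). Icosl had 1.75 (0.98 to 3.30) with h219-LLG and 0.91 (0.45 to 1.95) in the control. The higher levels of Ccr6 and Icosl thus rest on the values at full depth.

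Lower in Fcer2a B cells at full depth was the marginal zone marker Cd9, with ratios of 0.44 (0.30 to 0.62) with h219-LLG and 0.37 (0.23 to 0.58) in the control. Fcrl5, another gene of marginal zone and B-1 cells, had 0.25 (0.16 to 0.37) with h219-LLG and 0.66 (0.38 to 1.19) in the control. Ctla4, of the B-1 list, had 0.53 and 0.27, Ahnak 0.39 and 0.74, Plac8 0.77 and 0.76 and Atf3 0.55 and 0.58. At 1000 UMIs per cell Ahnak had 0.53 (0.39 to 0.73) and 0.86 (0.55 to 1.35) and Plac8 0.86 and 0.75. Atf3 had 0.77 (0.55 to 1.08) and 0.96 (0.61 to 1.54) at that depth. At full depth, 5 of 13 glycolysis genes had intervals below 1 in both libraries. Among them were Gapdh at 0.75 and 0.75, Ldha at 0.73 and 0.62 and Tpi1 at 0.52 and 0.69. Other glycolysis genes lay near 1 or on both sides of it, such as Hk1 at 0.92 and 0.95 and Slc2a1 at 0.96 and 1.13. None of the 8 measured after thinning was past 1.5-fold in both libraries. At 1000 UMIs Gapdh had 0.96 (0.82 to 1.12) and 0.77, Ldha 0.75 and 0.80 and Tpi1 0.70 and 0.48. S100a6 had 0.14 and 0.41 at full depth, and 0.19 (0.13 to 0.26) and 1.04 (0.45 to 2.62) at 1000 UMIs. Zbtb32, a transcriptional repressor, was found in 0.166% and 0.530% of Fcer2a B cells, against 2.22% and 0.428% of other B cells. The list medians at 1000 UMIs were -0.28 and -0.34 on the log2 scale for glycolysis, -0.29 and -0.28 for the marginal zone list and 0.18 and 0.14 for MHC class II.

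Cells within the class also differed from each other. The variance over the mean of thinned UMIs per cell (Fano factor, near 1 for counts scattered at random) had a median of 1.02 over 2717 genes. By the lower of the 2 libraries it was highest for Hspa1a (5.19), Gm42418 (4.62), Malat1 (3.84), Hspa1b (3.16) and Egr1 (2.95). Tmsb4x, which binds actin, Klf2, Ifi27l2a, an interferon-induced gene, Jun and Apoe followed at 1.88, 1.87, 1.85, 1.84 and 1.79. Hspa1a was found in 1.57% and 2.22% of thinned cells and Egr1 in 2.82% and 4.66%, so that their variance came from few cells with many UMIs. Klf2 was found in 72.7% and 62.1% of thinned cells and varied over the whole class, with at least 2 UMIs in 48.2% and 33.9% of cells. Gm42418 overlaps ribosomal RNA sequence and Malat1 is a nuclear RNA.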

How the data were processed

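Live CD45+ cells from subcutaneous B16 tumors were measured in 2 droplet libraries, 1 for h219-LLG and 1 for the isotype control. The authors deposited raw UMI counts per gene and called barcode, and the submitters' processing notes name Cell Ranger 5.0.0 and mm10. Further filters are not given in the sources used here. A barcode was kept at 500 or more UMIs, 200 or more genes and under 10% mitochondrial UMIs. UMIs of the members were summed per library, scaled to CPM and compared as ratios with exact 95% intervals (Poisson for a level, binomial for a ratio). With 1 library per group no test was run, and a ratio past 1.5-fold was counted among genes with 100 or more UMIs over both libraries. Fcer2a B cells were compared with other B cells after each barcode was thinned to 1000 UMIs, and also at full depth. The members and gene lists were chosen with earlier results of these data known. The genes named were, at 200 or more UMIs, the 12 with the highest and the 12 with the lowest ratio, the 2 highest and 2 lowest of each list, and list genes whose role is described. Genes over 5 times higher outside the B cells were left out of the first of these, as were immunoglobulin variable genes, and the 12 highest and lowest genes against other B cells and the 10 most variable genes were added. Barcodes were scored against simulated doublets and were not removed except in an alternative, at 0.8% per 1000 barcodes. The shares of lambda light chain and of Ighd were planned and are not analysed here, because 0 of the 15 constant genes looked for had a row. Coordinates came from GENCODE vM21 and promoters from RefSeq. The alternatives were other thresholds, scalings, depths and count minimums. The scripts used Python 3.11.15, numpy 2.4.6, scipy 1.17.1, pandas 2.3.3 and scikit-learn 1.9.0, and were tested on simulated data. Some genes of the lists are counted but not reported here by name.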

Additional observations from a re-analysis of the deposited data

Results flagged for a closer look

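The listed and named genes were looked up in 2 other classes of cells from the same libraries, where they had at least 30 UMIs, and 2 genes were past 1.5-fold in opposite directions in Fcer2a B cells and in another class, with both intervals clear of 1. Pdxk, which encodes pyridoxal kinase, had a ratio of 0.352 (0.271 to 0.454) in Fcer2a B cells and of 1.96 (1.02 to 3.93) in naive CD4 T-like cells, where it rested on 29 UMIs with h219-LLG and 15 in the control. It was the single gene of 201 compared with those cells that was past the fold both ways. Dusp2 and Dtx3l, described above, also had intervals on opposite sides of 1, but a ratio of each stayed within 1.5-fold. Lyz2, which encodes a myeloid lysozyme, had a ratio of 2.20 (1.67 to 2.92) in Fcer2a B cells and of 0.462 (0.343 to 0.619) in B cells with no Fcer2a UMI, from 77 and 124 UMIs. It was the single gene of 240 compared there. The difference between the classes was not tested for either gene, and each ratio compares 2 libraries with counting error only.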

How the results depend on the processing

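The ratio of the share of Fcer2a B cells was 0.964, against 0.776 at under 5% mitochondrial UMIs, 0.881 with at least 2 Fcer2a and 3 Cd79a UMIs, 0.888 with other-lineage genes at 0 and 1.24 after thinning. The 273 genes past 1.5-fold higher (4.12% of 6623) became 173 (3.61% of 4787) at under 5% mitochondrial UMIs, and the cause was not tested. They became 65 of 2717 measured genes (2.39%) after thinning. At a minimum of 200, 50 and no UMIs they became 120 of 4799, 560 of 8185 and 1923 of 12337 (2.50%, 6.84% and 15.6%). The 282 genes past 1.5-fold lower became 175 after thinning and 1256 with no minimum, where 12337 genes were measured. Of the genes past the fold, 49.2% were higher, against 35.8% at under 5% mitochondrial UMIs, 38.9% with TMM scaling (212 higher and 333 lower), 27.1% after thinning, 36.8% at 200 UMIs, 59.1% at 50 UMIs and 60.5% with no minimum. Against other B cells, the 11 higher genes of 3812 became 18 of 7698 without thinning. The 7 lower genes of 3812 became 14 of 3690 without doublet-scored barcodes and 2 of 2911 at the stricter Fcer2a and Cd79a thresholds. With other-lineage genes at 0 the lower genes were 11 of 2978, and without thinning they were 47 of 7698. The median log2 ratio of the myeloid markers was 0.89 and turned to -0.10 with other-lineage genes at 0, which removes cells with those UMIs by construction, and to -0.16 after thinning. With TMM scaling Psmb8, Psmb9 and Pirb had ratios of 1.49, 1.48 and 1.49, and after thinning Psmb8 had 1.46, Slfn5 1.21 and Slc2a1 0.76, no longer past 1.5-fold. Leaving out, for each gene, the cell with its most UMIs was chosen after seeing the data and gave 272 and 273 genes. Of the other values of single genes and lists, 3272 stayed within their counting interval and 220 moved beyond it. The 3272 include values that could not move. The minimums of 200, 50 and no UMIs changed which genes were counted, and not the ratio of a single gene. A higher minimum of UMIs per barcode kept the same Fcer2a B cells. The count of 3272 therefore overstates how stable the values were. With other-lineage genes at 0, Trac had no row and the other 10 genes were used.

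No paired analysis was possible because each group had 1 library, and for the same reason no replicate was left out. Treatment, library and mouse cannot be told apart. Intervals hold counting error alone. At a median of 3667 and 4474.5 UMIs per cell, a gene at 0 in a cell is not shown to be absent, and the alternatives of the lambda and Ighd shares were not run because those genes had no row.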
